A study of Drosophila melanogaster with 24 samples.

Results

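The spots that were brightest in the first legs of newly emerged adult fruit flies (Drosophila melanogaster), and brighter there than in the antenna and the proboscis, are described here across tissues, sexes and fly lines. Of 22575 spots on the array, 113 met the rule (0.501%). For the rule, each spot's mean local background was subtracted from its mean signal, negative differences were set to 0, an offset of 50 was added, and the log2 values of the 24 samples were quantile normalised. That is called the selection scale from here on. A spot was kept where all 8 first legs values exceeded the other 16 values, where the first legs mean was at least 0.7 above the mean of the next tissue, and where that gap was larger than the difference between antenna and proboscis. The spots were thus selected on their measured first legs, antenna and proboscis levels, and these levels are given below as a description, without a test.

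The samples were first legs from males and from females, cut from the distal tibia outward, antennae from both sexes, taken as the third segment with the arista, and proboscises from both sexes. Each of the 6 groups held 4 samples, all from adults 1 to 2 hours after eclosion, the emergence from the pupal case. The study text names the isogenic line WI89 for all flies, whereas the sample descriptions name RIL 58 for 12 samples and RIL 89 for the other 12, and how these names relate is not explained. All RNA was amplified by reverse transcription and T7 transcription before labelling, so levels are those of amplified material. Each sample was 1 dye channel, Cy3 or Cy5, of a 2-colour array, and 12 arrays were inferred from quality marks that were identical at every spot in pairs of samples. Nothing in the labels says that replicates came from separate flies. The p-values below therefore describe the spread among these particular samples, part of which may be technical.

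The tip of the first leg is both a walking and a sensing organ. Its tarsal segments carry taste bristles with which the fly samples food and the cuticular pheromones of other flies, and males bear a sex comb there that is used to grasp the female. The tibia and tarsus also hold muscle, long tendons, claws and adhesive pads, under a cuticle that is still hardening in the hours after emergence. In whole dissected tissue, fewer cells of a type and less RNA per cell cannot be told apart. No gene is attached to a spot in the deposited files, so the labelled tissues could not be checked against marker genes, and spots are given by number and grid place with no gene or role attached.

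The depth of an array sample is its brightness over background. The median signal above background over all spots ran from 102 to 148 in Cy3 samples and from 16.1 to 62.9 in Cy5 samples. By the correlation of their 2 channels the arrays divided, at a break of 0.138, into sets of 8 and 4 arrays. The smaller set held 1 first legs sample, female replicate 3. In female first legs both Cy3 samples were RIL 58 and both Cy5 samples RIL 89, so dye and line cannot be told apart within that group.

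The 113 spots were among the brighter ones of the array in the first legs and mostly above the median of all values in the other tissues as well. Signal above background had a median over the set of 189 to 775 in first legs samples and of 37.2 to 221 in the others. Their first legs means ran from 7.63 to 13.42 with a median of 8.69 on the selection scale. The antenna means ran from 6.52 to 10.54 with a median of 7.34, and the proboscis means from 6.58 to 10.64 with a median of 7.31. The dimmest of the 113 lay at percentile 90.7 of all first legs means and the median spot at percentile 97.8, while the median percentile in the next tissue was 85.3. Both other tissues lay below the median of all values, 6.86, for 15 of the 113 spots (13.3%), against 44.3% of all spots. For 88 spots neither tissue did. Most spots of the set thus stood above the middle of the array in the other tissues too. All spots are not a like comparison for this, since each of the 113 was among the brighter spots in first legs. The share among spots equally bright in first legs was not counted, so no trait of the set is read from it.

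The gap between the first legs and the next tissue had a median of 1.34, with quartiles of 1.07 and 1.73. It was under 1 for 25 spots, between 1 and 2 for 69, between 2 and 3 for 14, and above 3 for 5, with 4.01 as the highest. Across the 113 spots the gap went with the first legs mean (Pearson r = 0.76, spots that share the same 24 samples and one scale). The gap contains the first legs mean, so this relation is partly fixed by construction. The same rule kept 134 spots for the antenna, with a median gap of 1.32 and a highest gap of 5.62. For the proboscis it kept 44 spots, with a median of 1.25 and a highest gap of 3.54. The difference in these counts was not tested.

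All 8 first legs values lay above the other 16 for 171 spots of the array (0.757%). The gap conditions were met by 159 spots, of which 46 had at least 1 overlapping value and were left out, and the condition on the antenna and proboscis difference removed 0. The distance from the lowest first legs sample to the highest other sample ran from 0.02 to 3.04, with a median of 0.49. Just inside the gap threshold were spot 10624 (row 50, column 89) with a gap of 0.70 and spot 5958 (row 28, column 153) with 0.75. Just outside were spot 876 (row 5, column 16) with 0.68 and spot 4484 (row 21, column 184) with 0.67. The edge of the set is thus a cut through a continuous range.

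**Figure D1:**
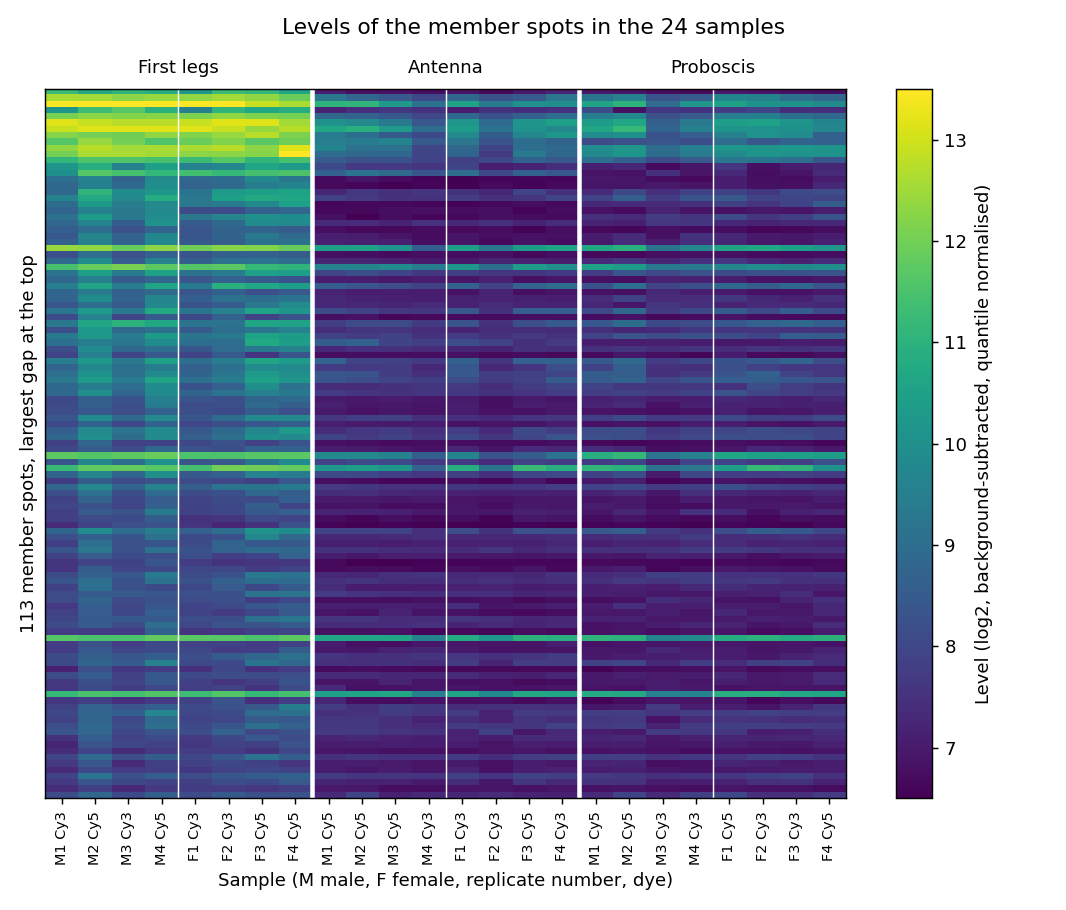
Levels of the 113 spots (down the page, ordered by gap) in the 24 samples (across, first legs at the left), as log2 values on the selection scale. The 8 first legs columns are brighter than the other 16 for each spot, as the rule required, and the medians of the Cy5 first legs samples, 9.06 to 9.41, exceed those of the Cy3 ones, 8.33 to 8.66.

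Spot 8915 (row 42, column 100) had the widest gap, 4.01. It measured 11.26, 10.72, 11.09 and 10.87 in male first legs and 10.21, 11.27, 11.13 and 10.64 in female first legs on the selection scale. Antennae gave 6.64 to 7.17 with a median of 6.86, and proboscises 6.68 to 6.98 with a median of 6.84. In signal above background, first legs samples held 706 to 3356, antennae 15.1 to 167 and proboscises 21.4 to 149. The spot was bright in every first legs sample and sat at about the median of all values in every other one.

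Spot 3788 (row 18, column 133) had the next gap, 3.26, at a higher level. It measured 12.61, 12.53, 12.28 and 12.43 in male first legs and 12.34, 12.53, 12.34 and 11.93 in female first legs. Antennae gave 8.02 to 9.29 with a median of 8.66, and proboscises 8.28 to 9.71 with a median of 9.16. Unlike spot 8915, it was well above the middle of the array in all 3 tissues.

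Spot 341 (row 2, column 126) had the highest first legs mean, 13.42, and was the brightest spot of the array in 6 of the 8 first legs samples. All 4 male first legs samples and female replicates 1 and 2 stood at 13.64, a value that recurs because quantile normalisation gives equal ranks an equal value. Female replicates 3 and 4 stood at 12.90 and 12.61. In signal above background the first legs samples ran from 4099 to 32987 with a median of 10704, antennae from 517 to 1653 and proboscises from 461 to 4412, so the highest proboscis sample exceeded the lowest first legs sample before normalisation. The spot carries a quality mark, whose meaning is not given in the files. The next highest first legs mean, 12.95, was that of spot 17394 (row 81, column 194), with samples from 12.43 to 13.16.

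The brightest 10 spots of each first legs sample held between 5 and 9 of the 113, and 10 different ones over the 8 samples. Of these, 4 were in the brightest 10 of all 8 first legs samples. In the 16 antenna and proboscis samples the brightest 10 held 0 of them. Among the brightest 100 spots the set had 17 to 24 in first legs samples and 0 to 8 in the others. The rule required each spot of the set to stand higher, and so to rank higher, in every first legs sample than in any other sample. That first legs counts were no lower than the others was thus fixed by the rule, and the counts are a description.

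At the other end of the contrast were spots that were bright in every tissue. Spot 19392 (row 91, column 42) averaged 11.65 in first legs, 10.54 in antennae and 10.64 in proboscises, the highest level in a next tissue. Spot 2356 (row 11, column 206) averaged 11.41, 10.39 and 10.49 in the same tissues. Their gaps, 1.01 and 0.92, lay below the median of the set.

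**Figure D2:**
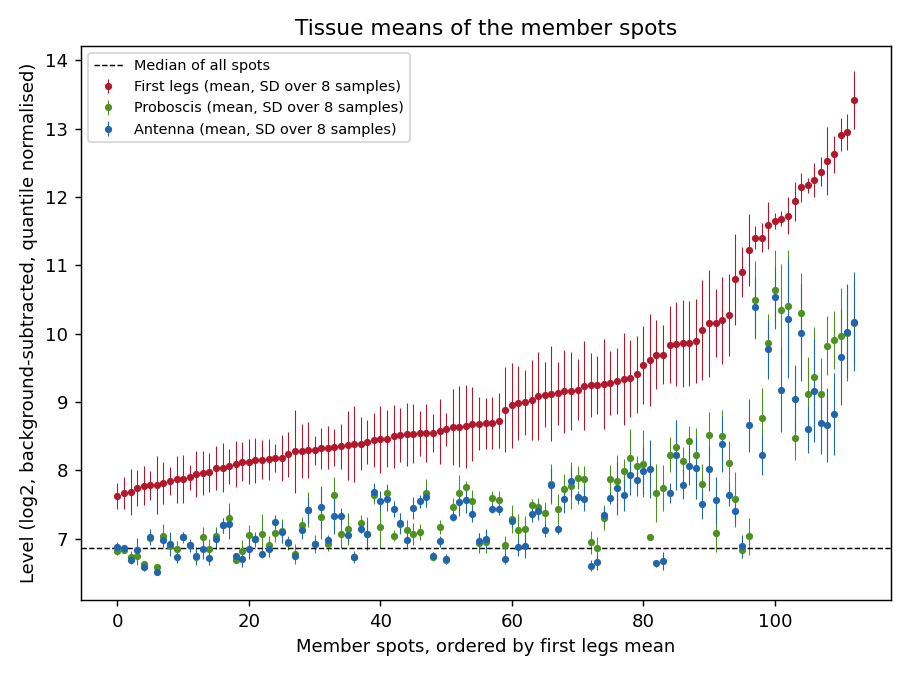
Mean level of each of the 113 spots in first legs, proboscis and antenna (vertical axis, log2 on the selection scale), with the spots ordered along the horizontal axis by first legs mean and bars for the SD over 8 samples. First legs means run from 7.63 to 13.42, and most means of the other tissues lie above the dashed median of all values, 6.86.

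The first legs values themselves were uneven between dyes. The range over the 8 first legs samples had a median of 1.11 and a highest value of 2.21 per spot. The lowest first legs value lay in a Cy3 sample for 95 spots and in a Cy5 sample for 18. The median over the set was 8.33 to 8.66 in the 4 Cy3 first legs samples and 9.06 to 9.41 in the 4 Cy5 ones, whereas it was 7.23 to 7.42 in antennae and 7.24 to 7.45 in proboscises of either dye. The size of the gap thus differed with the dye in which the first legs were labelled.

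Within Cy3 samples the gap had a median of 1.07 and ran from 0.43 to 4.09, with 98 of the 113 spots at 0.7 or more. Within Cy5 samples the median was 1.62 and the range 0.65 to 3.93, with 111 spots at 0.7 or more. The Cy5 gap was the larger for 95 spots. In 4 equal classes of the first legs mean, dimmest to brightest, it was larger in 27 of 29, 28 of 28, 28 of 28 and 12 of 28 spots. The direction in each dye was fixed by the rule, while the size differed between the dyes. In the set of 8 arrays alone the median gap was 1.36, with 112 spots at 0.7 or more.

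**Figure D3:**
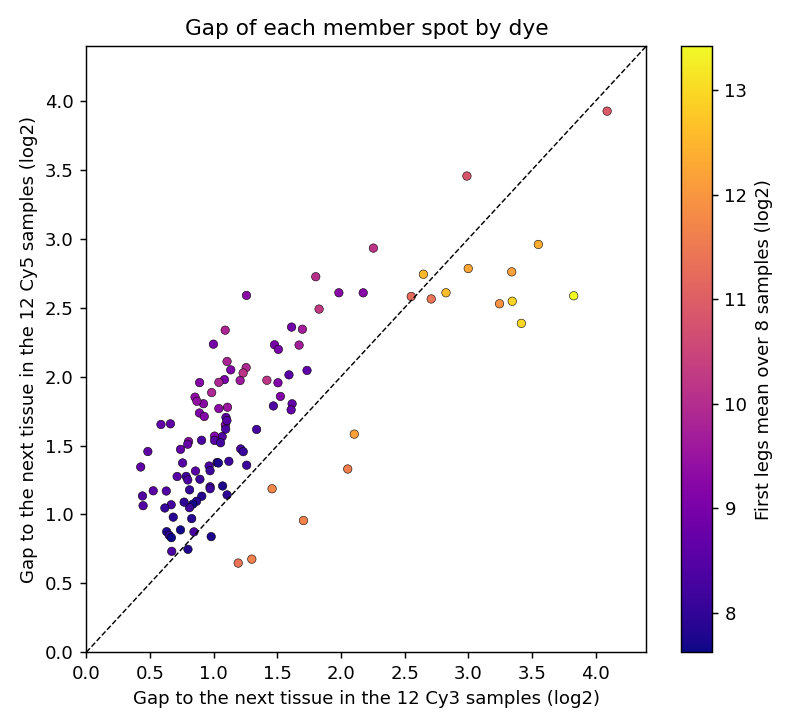
Gap between first legs and the next tissue computed in the 12 Cy5 samples alone against the gap in the 12 Cy3 samples alone, in log2 units, 1 point per spot. Most points, 95 of 113, lie on the Cy5 side of the line of equal gaps, and the rule fixed a gap above 0 in both dyes, the lowest being 0.65 in Cy5 and 0.43 in Cy3.

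On 4 arrays a first legs sample shared the slide with another tissue. First legs male replicate 1 (Cy3) exceeded antenna male replicate 1 by a median of 0.96 over the set (0.11 to 4.22). First legs female replicate 3 (Cy5) exceeded antenna female replicate 4 by 1.60 (0.53 to 3.95). First legs male replicate 4 (Cy5) exceeded proboscis male replicate 4 by 1.91 (0.71 to 4.25), and first legs female replicate 2 (Cy3) exceeded proboscis female replicate 1 by 1.12 (0.29 to 4.29). All 113 spots were higher in first legs on each of the 4 arrays, as the rule fixed, and the median over all spots stayed between -0.01 and 0.02.

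Many of the spots came in pairs with near-identical profiles. For each spot the nearest other spot of the array was found by the root mean square difference over the 24 samples. Of the 63 spots with a place 16950 to 17073 spot numbers away, 58 (92.1%) and the spot found there were each other's nearest. Among the 1068 spots with such a place that were at least as bright in first legs as the dimmest of the set, 534 (50%) were paired in that way. The range of 16950 to 17073 was itself the lowest and highest distance among the 58 spots. Those spots fell inside it by construction, so 92.1% and 50% are not a like comparison and no trait of the set is read from them. The files do not say whether such spots carry the same probe or the same gene.

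In 27 of these pairs both spots were in the set, so counting each pair once leaves 86 profiles. The differences over the 58 spots had a median of 0.12 and ran from 0.08 to 0.36, against a median of 0.24 to the second nearest spot. The pair of spots 341 and 17394 had the widest difference, 0.36. The 4 other partners missed the rule: their gaps were 1.49, 0.96, 0.73 and 0.67, and 3 of them had values that overlapped, by at most 0.09. The nearest spot was a member of the set for 100 of the 113. The rule chose spots of similar profile over these same samples, so that count follows from it in large part. Since paired spots were measured on the same samples and arrays, they repeat the reading of a sample and not the sample.

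Place on the grid and local background were close to those of the array at large. The 5 equal bands of grid rows held 26, 19, 20, 22 and 26 of the spots, and 2 spots adjoined another of the set. The median local background was 62.2 for the set and 61.6 for all spots. A quality mark was carried by 9 of the 113 spots (7.96%), against 1090 of all spots (4.83%).

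The sexes were compared next. The rule did not use this contrast directly, but it required every male and every female first legs sample to exceed the other tissues, so spots high in the first legs of 1 sex alone could not enter the set. For all tests, background was corrected with normexp, a model-based subtraction, and the log2 quantile-normalised values were fitted with limma over all 24 samples, with the 6 groups, dye, array set, their interaction and the RIL number as terms and the array as a random block. A call is a Benjamini-Hochberg adjusted p under 0.05 over all 22575 spots, two-sided. Differences are log2 values on this test scale, with standard errors (SE), and levels below are on the same scale before adjustment for dye. Each spot had 1 spread, pooled over all 24 samples, so antenna and proboscis samples also set the SE and p-values of the first legs comparison.

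Male minus female first legs differences had a median of 0.05 and ran from -0.54 to 0.97, where the median over all spots was 0.00. They were under 0.25 either way for 80 spots and 0.5 or more for 6, and 73 were above 0 (51.2% of all spots were). The sex difference had a median of 7.78% and a maximum of 39.4% of the spot's gap when that gap, too, was taken on the test scale, as the smaller of first legs minus antenna and first legs minus proboscis. The test called 2 of the 113 (1.77%), both higher in males, against 0.173% of all spots called and 0.151% called higher in males. At an unadjusted p under 0.05 there were 19 (16.8%), against 6.77% of all spots.

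Spot 7126 (row 34, column 31) was the called spot with the larger difference. Male first legs gave 8.65, 9.50, 9.21 and 9.72, and female first legs 7.90, 7.87, 8.49 and 8.68. Male replicate 1 thus fell just below female replicate 4, while the other 3 male samples lay above every female one. The adjusted difference was 0.97 ± 0.15 (SE), with 4 samples per sex and a limma adjusted p of 0.00699, both from the pooled spread. On the selection scale the SD was 0.43 in male and 0.36 in female first legs, but 0.08 in antennae and 0.14 in proboscises. On the 2 arrays that held first legs of both sexes, males exceeded females by 1.61 (male replicate 2, Cy5, and female replicate 1, Cy3) and by 0.53 (male replicate 3, Cy3, and female replicate 4, Cy5). The difference was -0.17 ± 0.18 in the antenna and 0.17 ± 0.24 in the proboscis, where the spot lay between 5.83 and 6.70. The test of unequal sex differences between the tissues gave a limma adjusted p of 0.183 for the spot.

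The other called spot, 15954 (row 75, column 44), lay outside the naming rule and was chosen after its values were seen. Male first legs gave 7.55, 7.86, 7.83 and 8.41, and female first legs 7.16, 7.21, 7.80 and 7.65. The groups overlapped, with male replicate 1 below female replicates 3 and 4. The adjusted difference was 0.50 ± 0.07, with a limma adjusted p of 0.00403. Males exceeded females on both shared arrays, by 0.70 and by 0.18. Its nearest spot, 9111 (row 43, column 81), for which 15954 was in turn the nearest, differed by 0.16 ± 0.10 with a limma adjusted p of 0.841. So the call did not extend to the spot most like it.

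Both calls depended on the fit. With a limma model that had no array block, the adjusted p was 0.166 for spot 7126 and 0.281 for spot 15954, and with the 8 first legs samples alone it was 0.449 and 1.00. The differences moved little, to 0.93 and 0.46 without the block and to 1.04 and 0.46 in first legs alone. Leaving out male first legs replicate 3 or female first legs replicate 4 ended both calls, at 0.172 and 0.254 for spot 7126 and 0.178 and 0.355 for spot 15954. The differences were then 0.92 and 1.04 at spot 7126 and 0.42 and 0.47 at spot 15954. Spot 7126 also lost its call without male replicate 2 (0.85, adjusted p 0.0741) or female replicate 1 (0.81, adjusted p 0.0996).

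The second largest difference was at spot 12702 (row 60, column 17), which missed the threshold. Male first legs gave 9.20, 10.62, 10.96 and 10.66, and female first legs 9.11, 9.07, 10.60 and 10.50. The low values were male replicate 1 and female replicates 1 and 2. The difference was 0.74 ± 0.20, with a limma adjusted p of 0.260, and without male replicate 1 it was 0.96 with an adjusted p of 0.0282.

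In the female direction the limma test called 0 spots of the set, with 0.0221% of all spots called. At so low a share, the count of 0 is not read as a trait of the set. Spot 15142 (row 71, column 92) had 8.96, 9.36, 9.17 and 9.85 in male first legs and 8.91, 8.92, 10.73 and 10.38 in female first legs. Female replicates 3 and 4 were the high samples, both Cy5 and RIL 89. The difference was -0.54 ± 0.26 with a limma adjusted p of 0.743. For 6 spots of the set (5.31%) those 2 female samples exceeded the other 6 first legs samples, against 4.51% of all spots. Spot 22115 (row 103, column 185) had a difference of -0.40 ± 0.16, with an adjusted p of 0.644, and its paired spot 5110 one of -0.39.

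Before adjustment for dye, the 4 male values lay clear of the 4 female ones for 0 of the 113 spots, where 0.266% of all spots had every male value above every female one and 0.217% the reverse. On the array with male first legs in Cy5 the male sample was higher for 107 of the 113 spots, by a median of 0.77. On the array with male first legs in Cy3 it was higher for 20, and the median was -0.48. On these 2 arrays the sign over the set thus went with the Cy5 channel. Where the male was in Cy5, both samples were RIL 58. Where the male was in Cy3, he was RIL 58 and the female RIL 89, so dye, sex and line cannot be told apart on that array. The share over all spots was not counted for either array alone, so the swing is not read as a trait of the set. On both arrays males were higher for 17 of the 113 spots (15%), among them 7126, 15954 and 12702, against 12% of all spots.

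**Figure D4:**
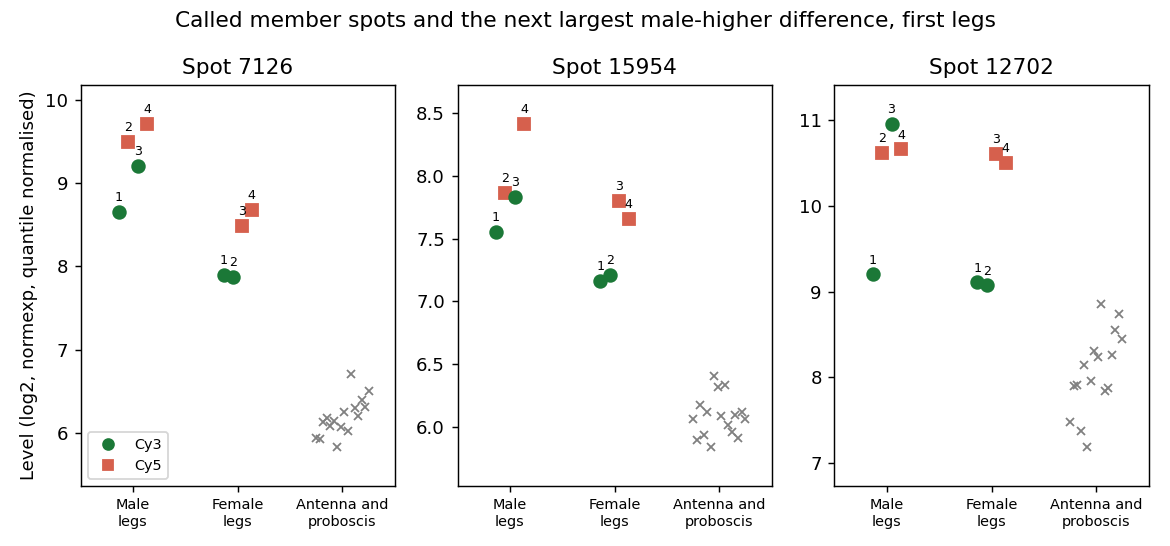
Levels of spots 7126, 15954 and 12702 (log2, test scale before adjustment for dye) in male and female first legs, with replicate numbers and the dye marked by shape and colour, and in the 16 other samples as crosses. At spot 7126, 3 of 4 male samples lie above every female sample.

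In the antenna, the spots raised in first legs gave no sex call. The limma test called 0 of 113, with 0.146% of all spots called, and 5 (4.42%) had an unadjusted p under 0.05, against 8.71% of all spots. The median male minus female difference was -0.04. The highest difference was at spot 10136 (row 48, column 31), which averaged 9.44 ± 0.27 in males and 8.54 ± 0.32 in females (SD over 4 antenna samples per sex, adjusted for dye, array set and line). Its difference was 0.90 ± 0.26 with a limma adjusted p of 0.309. Spot 341 followed with 0.75 ± 0.36 and an adjusted p of 0.573, and its paired spot 17394 had 0.71 ± 0.34. The lowest values were those of the paired spots 2334 and 19369, at -0.52 ± 0.21 and -0.45 ± 0.19, with adjusted p of 0.504 and 0.513.

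In the proboscis the limma test called 0 of 113, with 0.0133% of all spots called, and 10 (8.85%) had an unadjusted p under 0.05, against 3.2% of all spots. The median difference was 0.23, with 94 of the 113 above 0, as were 51.8% of all spots. With 1 dye effect for all arrays in place of 1 per array set, the median was -0.16 and 20 were above 0, as were 47.1% of all spots. That fit called 2 of the 113 (1.77%) lower in males, against 2.29% of all spots, and 0 higher, against 3.11% of all spots. In it 14 (12.4%) had a limma unadjusted p under 0.05, against 18.9% of all spots. Neither the sign over the set nor its share of small p-values beside all spots was therefore settled in this tissue. Here both male Cy5 samples and both female Cy3 samples were on the set of 4 arrays. The paired spots 21165 (row 99, column 95) and 4115 (row 20, column 30) had the highest values, 0.73 ± 0.32 and 0.69 ± 0.32, and the paired spots 19392 and 2356 the lowest, -0.36 ± 0.34 and -0.33 ± 0.30. All 4 had a limma adjusted p of 1.00.

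The joint limma test of a sex difference that varies between tissues called 0 of 113, with 0.0354% of all spots called, and 17 (15%) had an unadjusted p under 0.05, against 5.24% of all spots. With 1 dye effect it called 2 (1.77%), against 0.12% of all spots, and 21 (18.6%) had a limma unadjusted p under 0.05, against 15.5% of all spots. The share of small unadjusted p-values was thus near that of all spots in that fit, and no trait of the set is read from it. Spot 15954 had an adjusted p of 0.0995 in this limma test. So the male excess at the called spots was not shown to be particular to first legs.

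RIL 89 and RIL 58 samples were compared across all tissues. The limma test called 0 of the 113, and 0% of all spots. At an unadjusted p under 0.05 there were 9 (7.96%), against 6.22% of all spots. The largest differences came from paired spots. Spot 122 (row 1, column 122) was at 0.36 ± 0.19 and its partner 17193 (row 80, column 208) at 0.34 ± 0.17. Spot 341 was at -0.55 ± 0.23 and its partner 17394 at -0.41 ± 0.22. The 4 limma adjusted p-values ran from 0.797 to 0.822.

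The 2 remaining tissues differed from each other for part of the set. The rule capped this difference at the size of the gap, so the counts are a description. On the selection scale the proboscis mean was above the antenna mean for 77 of the 113 spots (68.1%), against 54.4% of all spots. The highest value outside the first legs lay in a proboscis sample for 81 on that scale. In the limma fit 30 spots (26.5%) had an adjusted p under 0.05 for antenna minus proboscis, against 15.9% of all spots. Of these, 10 were higher in the antenna (8.49% of all spots), with differences of 0.17 to 1.91, and 20 lower (7.4% of all spots), with differences of -0.27 to -1.50.

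Spot 16349 (row 77, column 9), which carries a quality mark, had the largest excess in the antenna. On the selection scale it averaged 11.23 in first legs, 8.66 in antennae (8.01 to 9.17) and 7.04 in proboscises (6.76 to 7.45). Antenna minus proboscis was 1.91 ± 0.19 on the test scale, with a limma adjusted p of 5.19e-07. Spot 15142 followed with 1.06 ± 0.19 and an adjusted p of 0.000545, a call that was lost with the array as a fixed block (0.92, limma adjusted p 0.0920). These spots were graded over the 3 tissues, with the proboscis lowest.

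The reverse grading was seen at the paired spots 19369 (row 91, column 19) and 2334 (row 11, column 184). On the selection scale spot 19369, which carries a quality mark, averaged 9.69 in first legs, 6.64 in antennae (6.56 to 6.75) and 7.67 in proboscises (7.31 to 8.55). Spot 2334 averaged 9.69, 6.68 and 7.74 in the same tissues and on the same scale. Antenna minus proboscis was -1.50 ± 0.12 and -1.47 ± 0.14 on the test scale, so these differences are not those of the means just given. On the selection scale the antenna samples stood below the median of all values and did not overlap with the proboscis samples.

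For the 27 pairs, the differences of both partners are given as a description. The difference within a pair had a median size of 0.07 for the sexes in first legs, 0.07 in antennae, 0.09 in proboscises, 0.05 for RIL 89 against RIL 58 and 0.03 for antenna minus proboscis. The largest were 0.20, 0.40, 0.20, 0.17 and 0.18. Pairs had the same sign in 21, 22, 23, 25 and 24 of 27 cases, in that order. Across pairs the correlation between partners was 0.91, 0.80, 0.91, 0.91 and 0.99 (Pearson r, n = 27, partners share samples and arrays). Partners were picked for the smallest difference over these same samples, so this closeness follows from the choice and shows no repeat of a difference.

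**Figure D5:**
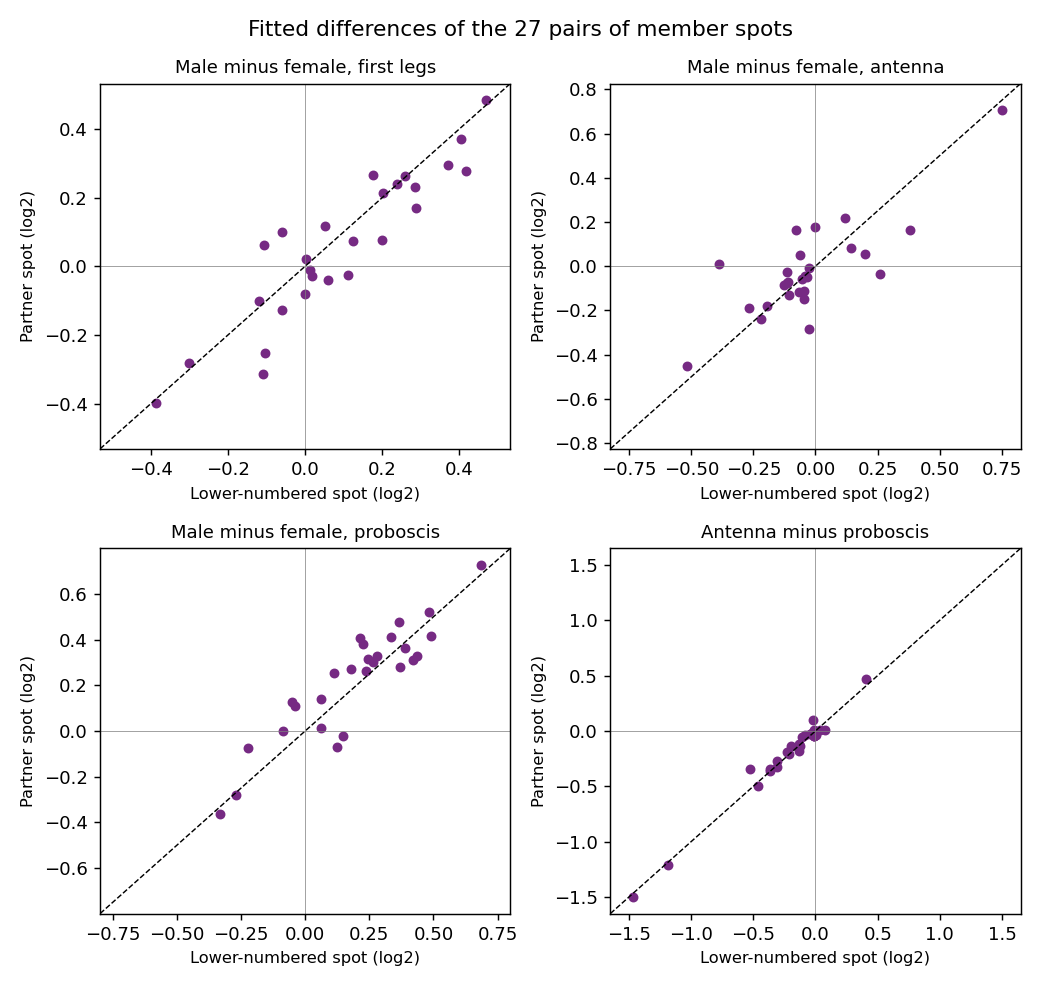
Differences at the partner spot (vertical axis) against those at the first spot (horizontal axis) of the 27 pairs, in log2 units on the test scale, with 1 panel for male minus female in first legs, antenna and proboscis each and 1 for antenna minus proboscis. Points lie near the dashed line of equal differences, with r of 0.91, 0.80, 0.91 and 0.99, as the choice of partners by near-identical profile fixed in large part.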

How the data were processed

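RNA levels were read as spot brightness. Per the file headers, the deposited scanner files hold linear intensity values, spot and background, with no normalisation, and a quality score whose values are not explained. The deposited series table holds natural log values of the background-subtracted signal, as they differed from those of the scanner files by at most 9e-08. The scanning program and array annotation are not given in the sources used here. Groups, dye and line number came from the labels.

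The selection scale was computed as log2 of the background-subtracted intensity of the deposited files plus 50, and the test scale with normexp (offset 50), both quantile normalised over 24 samples. No probes were averaged and no spots left out. Tests used R 4.3.3, limma 3.58.1 and statmod 1.5.0 (array correlation 0.552, 14 residual degrees of freedom), the rest Python 3.11.15 with numpy 2.4.6, pandas 2.3.3 and matplotlib 3.10.9. On simulated data for the first legs sex comparison, run on all 22575 spots, the fit recovered 81% of 100 spots changed by 0.5 and 98% of 100 changed by 1, and 3.24% of its 185 calls were false. Those data were drawn from the fitted model itself, with normal noise, its own array correlation and the same spread in every tissue. The changed spots were picked at random from the array. The shares therefore hold only where that model does and do not measure how the test performs on the real samples.

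The 113 spots and all settings were chosen with earlier results of these data known, including the choice of 1 dye effect per array set. No spot has a gene name here, so the rule for naming took, by number, at most 2 spots per direction: the widest gaps, the gaps nearest the threshold, the highest first legs and next-tissue means, and the largest differences in each contrast. Partner spots and called spots are named beside them.

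Labels share replicate numbers between the sexes. The correlation of same-numbered deviations ran from -0.18 to 0.24 in first legs, 0.18 to 0.49 in antennae and -0.18 to 0.23 in proboscises. It was above 0.1 for all 4 numbers in antennae alone, so the numbers were not taken as pairs in the fit over all tissues. The highest value, 0.49, was that of antenna replicate 2, whose male and female samples shared an array. The array was not removed from these deviations, so for that number array and replicate cannot be told apart. The fit with the replicate number as a block gave the same sex counts, antenna included. The alternatives covered background, offset, normalisation, dye, line, array block, variance trend, filters and each sample left out.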

Additional observations from a re-analysis of the deposited data

Results flagged for a closer look

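For the named spots, each group of 4 samples was searched for a sample far from the other 3, on levels with dye, array set and line removed. Of 114 groups over 19 spots, 9 held one, where chance gives about 5%. In first legs males, replicate 1 stood at 12.95 for spot 3788, above the others at 12.45 to 12.51, and at 8.70 for spot 7126, below the others at 9.39 to 9.46. Replicate 2 stood at 9.09 for spot 4115, above 7.89 to 7.96. In antenna males, replicate 4 was high at 6.12 for spot 19369 and at 6.37 for spot 4115, and in antenna females replicate 2 was high at 6.35 for spot 2334. In proboscis males, replicate 1 was low at 7.82 for spot 12702, replicate 2 low at 6.51 for spot 17193, and replicate 3 high at 7.45 for spot 16349. First legs male replicate 2 was also the highest of the 8 first legs samples at spot 21165, the partner of spot 4115, with 9.60 against 9.56 at spot 4115 on the selection scale.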

How the results depend on the processing

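The count of 113 spots became 67 (66 shared) with each sample scaled to 1 median and 194 (110 shared) with Cy5 samples alone, and was 109 to 130 with 1 sample left out, 107 spots being kept each time. The median gap was 1.07 to 1.62. The 2 sex calls in first legs became 0 with no dye term, 1 median, cyclic loess, no array block, a fixed array block, or the 8 first legs samples alone. They were 0 to 4 with 1 sample left out: 4 without male first legs replicate 1, 0 without male replicate 3 or female replicate 4. Antenna counts stayed at 0. With 1 dye effect the proboscis count was 2 and the interaction count 2. With 1 sample left out the interaction count was 0 to 2, with 2 without male first legs replicate 1. RIL calls stayed at 0. The 30 antenna and proboscis calls became 10 with no dye term, 19 with no background correction and 12 with a fixed array block, and were 18 to 37 with 1 sample left out, 18 without antenna female replicate 3. The male minus female antenna difference reversed to 0.14 at spot 2334 and 0.23 at spot 19369 with 1 median, and to 0.0865 at spot 19369 with cyclic loess. The proboscis sex difference at spot 4115 was -0.0229 with no dye term, and the line difference at spot 17193 was -0.0411 with 1 median. Spot 15142 lost its call between antenna and proboscis with a fixed array block (0.92, limma adjusted p 0.0920). The causes were not tested. With the replicate block the sex counts were 2, 0 and 0 in first legs, antenna and proboscis, and 34 spots (29 shared) were called between antenna and proboscis; the interaction count stayed at 0. The block took the place of the line term, so it gives no RIL count. Signal over background limits the dim end: the median net signal was as low as 16.1 in Cy5 samples.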
